A study of Rattus norvegicus with 30 samples.

Results

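The effect of isoproterenol on the rat heart at 24 h was set against its effect at 3 h, gene by gene, as the difference (isoproterenol minus vehicle at 24 h) minus (isoproterenol minus vehicle at 3 h). The comparison used 14 of the 30 arrays of the study: 4 isoproterenol and 3 vehicle arrays of 24 h, and 4 isoproterenol and 3 vehicle arrays of 3 h. All groups are heart tissue of male rats of the outbred Wistar Han stock Crl:WI(Han), each array is titled a biological replicate, and the treated groups received 1 dose of isoproterenol hydrochloride. The dose is labelled 0.5 mg/kg/ml in the sample titles and 0.5 mg in the design text, and the labels state neither age, route of dosing nor whether animals were pooled, so p-values measure the spread between these samples. Of 24292 probe sets tested, 17584 carried 1 gene name and stood for 12451 genes, each represented by its probe set with the highest mean level.

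Isoproterenol is a synthetic catecholamine that stimulates beta-adrenergic receptors, which act through cyclic AMP and protein kinase A to speed and strengthen the heartbeat. Within the first hours such a stimulus is known to switch on immediate early genes, which need no new protein synthesis, together with targets of the cyclic AMP response element binding protein CREB. High doses are also known to injure cardiomyocytes, and in this well-known rat model the injury is followed by entry of monocytes and macrophages, by cell division outside the cardiomyocytes and by deposition of matrix.

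Levels are log2(intensity + 16) after quantile normalization, and effects and differences are log2 units with standard errors after the ± sign. A gene was called where limma's moderated test gave an adjusted p under 0.05. A rise or fall "ended" where it was called at 3 h, not called at 24 h, and the difference was called against it. It "started" where it was called at 24 h, not at 3 h, and the difference was called with it. It "turned" where both times and the difference were called and the directions were opposite. These classes use the 3 h and 24 h values themselves, so the levels shown for their members at those times describe the classes and do not support them.

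Several array properties moved with the comparison. Median intensity before normalization lay between 35.2 and 70.3 on isoproterenol arrays and between 29.7 and 49.3 on vehicle arrays at 24 h, against 21.2 to 32 on isoproterenol arrays and 26.8 to 40.7 on vehicle arrays at 3 h. The log2 difference between the 3' and 5' beta-actin control probe sets, a sign of how complete the labelled RNA was, averaged 1.06 ± 0.21 on isoproterenol arrays (SD, n = 4) and 1.69 ± 0.23 on vehicle arrays (SD, n = 3) at 24 h. At 3 h it averaged 1.91 ± 0.13 on isoproterenol arrays (SD, n = 4) and 1.28 ± 0.60 on vehicle arrays (SD, n = 3). The same quantity for Gapdh stayed between 0.35 and 0.42 in the 4 group means. Isoproterenol replicate 3 of 24 h stood nearer to the vehicle arrays than its companions: it was the array nearest the vehicle mean for 1866 of the 2142 genes called at 24 h (87.1%). Isoproterenol arrays carry the numbers 38 to 41, 53 to 55 and 57 and vehicle arrays the numbers 7 to 9 and 16 to 18, so the position in that numbering cannot be told apart from treatment.

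The effect differed between the times for 1037 of 12451 genes (8.33%), being higher at 24 h for 603 (4.84%) and lower at 24 h for 434 (3.49%). By the separate calls, isoproterenol raised 1247 genes (10%) and lowered 895 (7.19%) at 24 h, and raised 864 (6.94%) and lowered 788 (6.33%) at 3 h. Counts of gene list members given below stand against these shares of all genes. The lists were chosen with earlier results of these data known, so their counts and medians are descriptions and not tests. Of the 1037 genes, 261 had a rise that ended (2.1% of all genes), 152 a fall that ended (1.22%), 374 a rise that started (3%) and 106 a fall that started (0.851%). A rise turned into a fall for 11 genes (0.0883%) and a fall into a rise for 17 (0.137%). A further 248 genes rose at both times and 124 fell at both, and for 218 and 122 of these the difference was not called. Many genes called at 1 time only had no called difference: 839 were called at 3 h only and 1262 at 24 h only and are counted in no class of change.

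**Figure D1:**
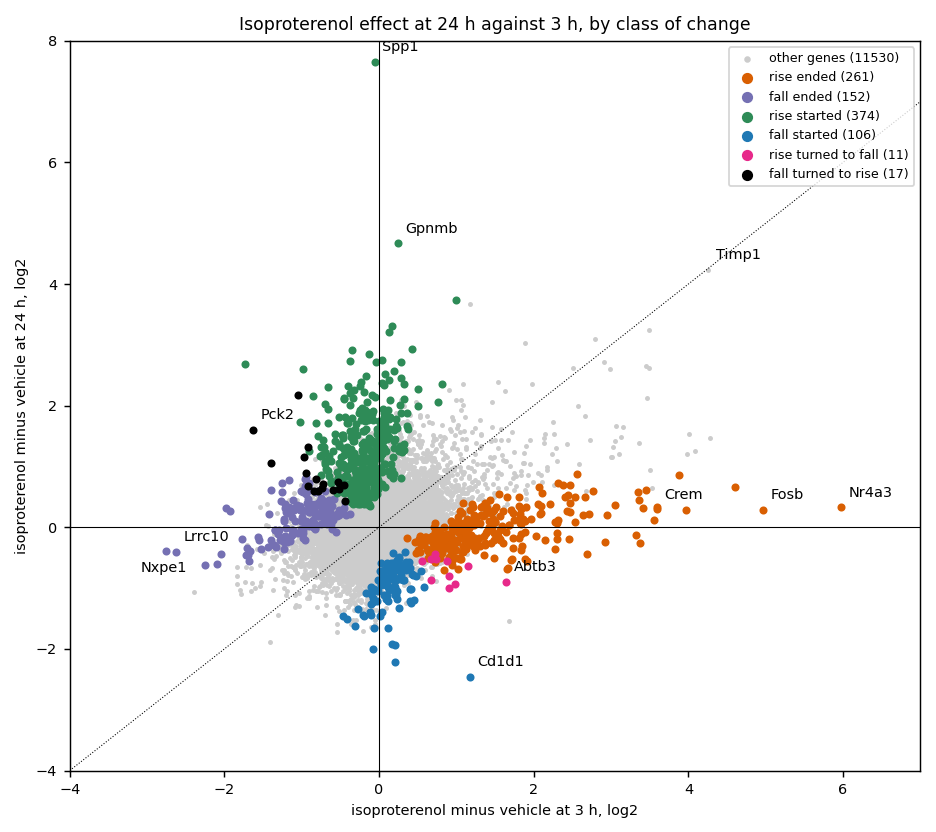
Isoproterenol effect at 3 h (horizontal axis) against 24 h (vertical axis), both log2, for 12451 genes, with colours for the 6 classes and a dotted line of equal effect. Rises that ended lie along the right arm near 0 at 24 h with Nr4a3 at its tip, and rises that started lie along the upper arm with Spp1 at its tip. The 28 genes that turned lie in the upper left and lower right quadrants, closer to the centre than the tips of the arms.

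The counts depend on the array properties above. With the beta-actin difference as a covariate, 37 genes were higher and 117 lower at 24 h than at 3 h, and with the log2 array median as a covariate, 221 were higher and 267 lower. Without isoproterenol replicate 3 of 24 h, 977 were higher and 661 lower, and without vehicle replicate 2 of 3 h, 360 were higher and 282 lower. Without normalization, 971 were higher and 37 lower (96.3% higher, against 58.1% after quantile normalization), and the median difference over all probe sets was then 0.67 in place of 0.02. Scaling to a common trimmed mean gave 953 higher and 433 lower (68.8% higher), with a median of 0.13. Of the genes named below with a called difference, 107 were followed through the other fits. Genes named only in passing, such as Atf4, Trib3, Ppp1r15a, Calr and Mcm2, were not followed in this way. With the beta-actin covariate, 107 of the 107 kept their direction and 47 kept their call. Named ended rises that lost it were Spry2, Il6, Slc7a5, Ppargc1a and S100a9, and rises kept but smaller that lost it were Atf3, Mt2A, Gadd45g and Txnrd1. Among named ended falls Nxpe1, Ccdc102a, Lrrc10, Cpne2 and Klf15 kept it, among started rises Spp1, Pclaf, Plk1 and Sdf2l1, among started falls none, and among turned genes Abtb3, Tent5c, Thbd, Klf4, Rhoj, Evi2a, H1f2 and Dock10. Without each array in turn, 98 of the 107 kept their call in every fit, and the exceptions are given beside the genes. List members whose call rested on single arrays were mostly left unnamed, so the choice of genes raised that share. Without isoproterenol replicate 2 of 24 h, 84.3% of all ended rises, 64.5% of ended falls, 50.8% of started rises and 36.8% of started falls stayed in their class. Other probe sets of Adamts9, Dock10, Kcna2, Klf15, Prkar1a, Thbd and Trib3 gave a difference of the opposite sign to the one shown. Some others had the same sign but a much smaller difference, such as 0.09 for Aif1, 0.54 for Pck2, -0.47 for Htra3, -0.63 for Apln and -0.43 for Crem.

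**Figure D2:**
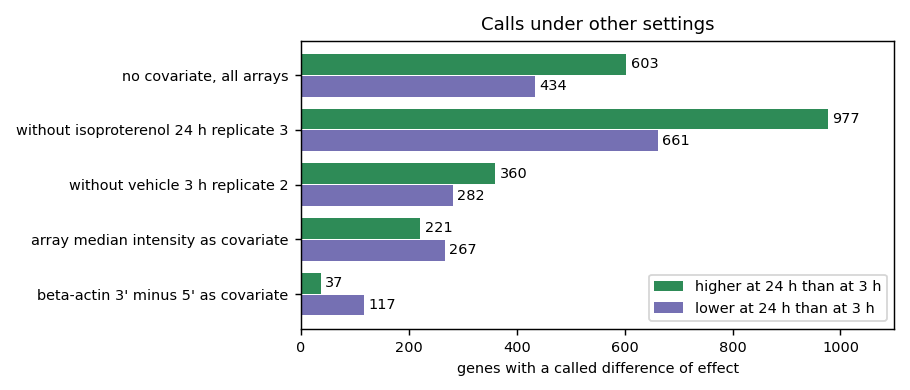
Number of genes (horizontal axis) whose isoproterenol effect was called higher (green) or lower (violet) at 24 h than at 3 h, with all arrays and no covariate and under 4 other settings. The count of higher genes drops to 37 with the beta-actin covariate and reaches 977 without isoproterenol replicate 3 of 24 h.

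Few genes were called between the vehicle groups themselves: 13 of 12451 genes (0.104%) differed between vehicle at 24 h and vehicle at 3 h, 8 higher and 5 lower. Leaving out 1 array gave 0 to 123. For 128 of the 1037 genes with a called difference, however, the vehicle mean moved further between the times than the isoproterenol mean. The vehicle shift from 3 h to 24 h also leaned by class, in the direction that enlarges the difference. Its median was 0.276 for ended rises, -0.225 for ended falls, -0.184 for started rises and 0.273 for started falls, against 0.026 over all genes. It was above 0 for 209 of 261, 39 of 152, 95 of 374 and 100 of 106 genes of these classes. The effects at 1 h and 72 h were not used to assign the classes, although those arrays shared the normalization and the variance estimate of the fit. With the 14 arrays of 3 h and 24 h alone there were 67 ended and 59 started falls. Of the 261 genes whose rise ended, 125 (47.9%) were already higher at 1 h and 0 were lower, against 2.37% higher among all genes. Of the 152 whose fall ended, 23 (15.1%) were lower at 1 h, against 1.04%. Of the 374 whose rise started, 226 (60.4%) were higher at 72 h, against 13.3%, and 0 were higher at 1 h. Of the 106 whose fall started, 35 (33%) were lower at 72 h, against 8.71%.

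**Figure D3:**
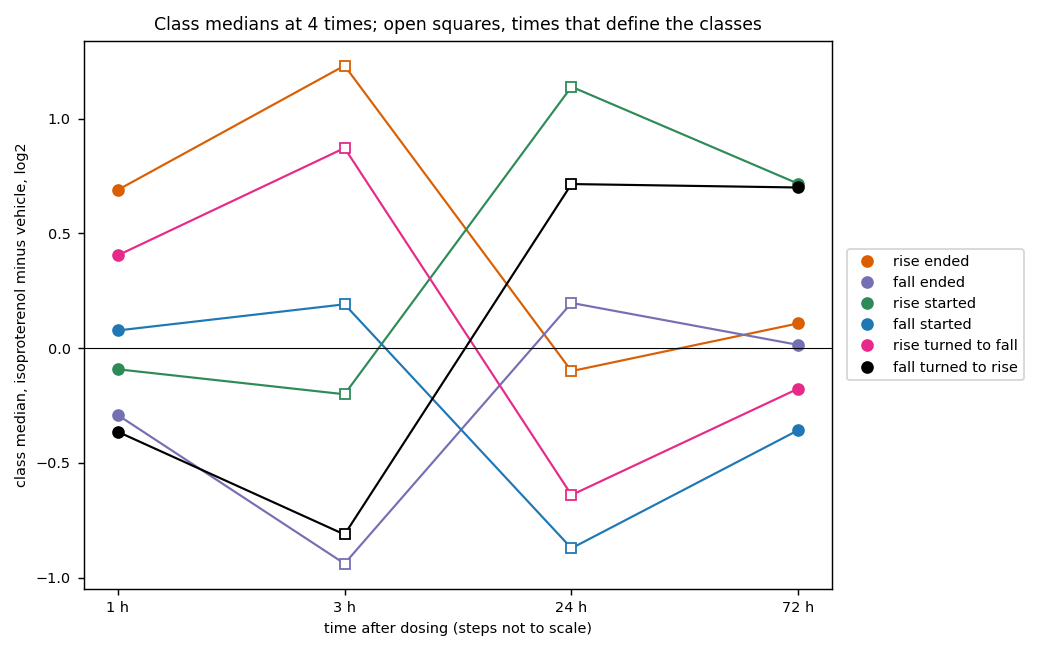
Median isoproterenol effect (vertical axis, log2) of the 6 classes at 1, 3, 24 and 72 h (horizontal axis, steps not to scale), with open squares at the 2 times that define the classes and filled circles at the times that do not. Ended rises stood at 0.69 at 1 h and 0.11 at 72 h, and started rises at -0.09 at 1 h and 0.72 at 72 h.

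The rises that ended were led by transcription factors of the immediate early and cyclic AMP classes. The genes listed first for each class are the 8 with the largest difference among those whose isoproterenol and vehicle arrays did not overlap at the time or times called, as was so, in the direction of a rise or a fall, for 13% and 12.5% of all genes at 24 h and for 9.53% and 11.2% at 3 h. Here they were Nr4a3, Fosb, Fos, Gfpt2, Noct, Maff, Egr1 and Crem, with differences between -5.65 ± 0.59 for Nr4a3 and -3.30 ± 0.25 for Crem. Over all 261 genes the median effect was -0.10 at 24 h and 1.23 at 3 h. Under the beta-actin covariate 92 of the 261 stayed in the class, all 261 kept the sign of the difference, and the median difference was -1.25, against -1.39 without it.

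Nr4a3, an orphan nuclear receptor, had levels of 5.49, 5.96, 4.58 and 5.55 on the isoproterenol arrays and 5.43, 5.38 and 4.40 on the vehicle arrays at 24 h. It had 11.41, 11.85, 11.55 and 11.61 on the isoproterenol arrays and 5.55, 5.73 and 5.61 on the vehicle arrays at 3 h. All 4 isoproterenol arrays of 3 h stood far above every other array, and at 24 h the 2 groups overlapped. Its effect was 0.33 ± 0.41 at 24 h and 5.97 ± 0.41 at 3 h, a difference of -5.65 ± 0.59 (limma adjusted p = 1.48e-07). Its relatives Nr4a2 and Nr4a1 followed the same course with differences of -2.65 ± 0.39 and -2.47 ± 0.40.

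Fosb and Fos, both partners of Jun proteins in the AP-1 factor, differed by -4.68 ± 0.39 and -3.94 ± 0.65. Fosb had 4.91, 5.12, 4.93 and 4.78 on the isoproterenol arrays and 4.45, 4.64 and 4.83 on the vehicle arrays at 24 h. Against these, Fosb had 9.09, 10.55, 8.94 and 9.72 on the isoproterenol arrays and 4.83, 4.68 and 4.31 on the vehicle arrays at 3 h. Its 24 h arrays and its 3 h vehicle arrays were all below 5.29, the log2 level of the low-value filter, so at 24 h the gene was back among dim probe sets in both groups. The effect on Fos was 0.67 ± 0.46 at 24 h (adjusted p = 0.392) and 4.61 ± 0.46 at 3 h.

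Crem, whose inducible product ICER is a repressor made from an internal promoter that responds to cyclic AMP, had 8.08, 8.09, 7.40 and 8.04 on the isoproterenol arrays and 7.61, 7.49 and 7.73 on the vehicle arrays at 24 h. Crem had 11.10, 11.44, 11.13 and 11.27 on the isoproterenol arrays and 7.76, 7.67 and 7.49 on the vehicle arrays at 3 h. The 4 isoproterenol arrays of 3 h lay within a narrow band well above the rest, while replicate 3 of the isoproterenol arrays at 24 h was below the vehicle arrays and the other 3 were above them. The difference was -3.30 ± 0.25 (adjusted p = 1.63e-10) and -2.64 ± 0.26 for Pde4b, a phosphodiesterase that breaks down cyclic AMP. Both kept their call in every other fit run for them. The median difference over the probe sets of each gene was -2.17 for Crem and -2.37 for Pde4b.

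Egr1, a zinc finger factor, differed by -3.43 ± 0.52, Maff, a small Maf factor, by -3.45 ± 0.27, Noct, a phosphatase with a circadian rhythm in many tissues, by -3.63 ± 0.26, and Gfpt2, an entry enzyme of hexosamine synthesis, by -3.69 ± 0.34. The Maff effect was -0.13 ± 0.19 at 24 h and 3.32 ± 0.19 at 3 h (0.915-fold and 9.99-fold). Maff levels were 6.65, 6.60, 6.43 and 6.16 on the isoproterenol arrays and 6.54, 6.72 and 6.49 on the vehicle arrays at 24 h. They were 9.64, 10.00, 9.38 and 9.72 on the isoproterenol arrays and 6.56, 6.30 and 6.22 on the vehicle arrays at 3 h. The 7 arrays of 24 h lay between 6.16 and 6.72 with the groups intermixed, and the 3 h groups did not overlap.

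Promoters of 3 of these genes are shown because they hold sites known to respond to such signals. Windows run from 250 bases before to 50 after the annotated start (RefSeq, build GRCr8), and motifs are in capitals: in Egr1 (chr18:26736828-26737127, + strand) 2 CArG boxes, the binding site of serum response factor, and in Maff (chr7:112792537-112792836, + strand) and Il6 (chr4:5894526-5894825, - strand) a cyclic AMP response element.
Egr1: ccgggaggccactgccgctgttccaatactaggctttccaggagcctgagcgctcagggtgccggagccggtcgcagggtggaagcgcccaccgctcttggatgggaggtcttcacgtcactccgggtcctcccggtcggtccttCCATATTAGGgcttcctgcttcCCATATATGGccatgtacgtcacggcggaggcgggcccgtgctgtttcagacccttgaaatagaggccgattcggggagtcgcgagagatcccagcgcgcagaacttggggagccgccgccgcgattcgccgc
Maff: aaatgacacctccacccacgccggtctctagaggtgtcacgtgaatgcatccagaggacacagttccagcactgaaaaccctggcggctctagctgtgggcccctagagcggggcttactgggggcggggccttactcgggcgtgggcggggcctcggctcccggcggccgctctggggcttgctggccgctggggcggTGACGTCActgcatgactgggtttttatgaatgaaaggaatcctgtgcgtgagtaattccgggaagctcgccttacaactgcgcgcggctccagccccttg
Il6: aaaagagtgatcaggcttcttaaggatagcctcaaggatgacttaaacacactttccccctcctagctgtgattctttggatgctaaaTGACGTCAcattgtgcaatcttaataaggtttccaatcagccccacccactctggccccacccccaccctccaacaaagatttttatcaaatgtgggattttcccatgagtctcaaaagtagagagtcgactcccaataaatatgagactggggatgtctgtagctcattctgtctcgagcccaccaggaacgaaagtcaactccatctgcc
The cyclic AMP response element TGACGTCA, which reads the same on both strands, stood in 11 of the 184 promoters available for genes whose rise ended (5.98%), against 298 of 9629 for all genes tested (3.09%). CArG boxes stood in 2.17%, against 1.24%, and the AP-1 site TGAGTCA or TGACTCA in 3.8%, against 3.56%. No CRE or AP-1 match overlapped another searched motif. These are matches of letters in a short window and were not tested.

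Of 28 immediate early genes tested, 17 had a lower and 0 a higher effect at 24 h, with a median difference of -1.44, against 0.05 over all genes. Of these 28, 23 rose at 3 h and 4 at 24 h. The rise of Atf3, a stress-induced factor, was smaller at 24 h but still called (1.25 ± 0.38 at 24 h and 4.08 ± 0.38 at 3 h). Of 20 cyclic AMP and CREB targets, 12 had a lower and 1 a higher effect at 24 h (median difference -1.51), and none rose at 24 h while 14 rose at 3 h. Ppargc1a, a coactivator of mitochondrial genes, had an effect of -0.62 ± 0.25 at 24 h and 0.94 ± 0.25 at 3 h, and was the 1 of 38 fatty acid oxidation and lipid genes with a called difference. Nfil3 and Bhlhe40, repressors tied to the circadian clock, differed by -1.47 ± 0.28 and -1.81 ± 0.35, and 3 of 17 clock genes had a lower effect at 24 h.

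Inhibitors and receptors of the signal held fewer called differences. Of 22 feedback inhibitors of kinase and cytokine signals, 5 had a lower and 0 a higher effect at 24 h (median difference -0.80). Errfi1, an inhibitor of the epidermal growth factor receptor, differed by -2.75 ± 0.44, and Spry2, an inhibitor of receptor tyrosine kinase signals, by -1.72 ± 0.31. Of 22 genes of beta-adrenergic signalling, 1 was higher and 1 lower, a share near the 4.84% and 3.49% of all genes. These were Arrb2, which encodes the receptor-desensitizing beta-arrestin 2 (1.71 ± 0.27 at 24 h and -0.41 ± 0.27 at 3 h), and Prkar1a, a regulatory subunit of protein kinase A (-0.58 ± 0.11 at 24 h and 0.10 ± 0.11 at 3 h). The receptor gene Adrb1 had an effect of -0.22 ± 0.23 at 24 h and -0.27 ± 0.23 at 3 h and passed neither test. The adrenomedullin receptor partner Ramp2, an endothelial marker, had an effect of 0.45 ± 0.18 at 24 h, not called, and -0.64 ± 0.18 at 3 h.

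Il6, an inflammatory cytokine, had 4.91, 5.52, 4.46 and 4.65 on the isoproterenol arrays and 4.40, 4.14 and 4.36 on the vehicle arrays at 24 h. Il6 had 7.10, 9.69, 7.19 and 8.81 on the isoproterenol arrays and 5.01, 4.22 and 5.32 on the vehicle arrays at 3 h. The 4 isoproterenol arrays of 3 h were above all others, and of the other 10 arrays none exceeded 5.52. At 24 h all isoproterenol arrays were above the vehicle arrays, at levels near or below the filter. Its difference was -2.77 ± 0.57 and that of Cxcl1, a neutrophil chemokine, -3.01 ± 0.52. Of 28 cytokines and chemokines, 2 had a lower and 1 a higher effect at 24 h, against 3.49% and 4.84% of all genes.

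The monocyte chemokines did not follow Il6 and Cxcl1. Ccl2 rose by 3.25 ± 0.43 at 24 h and 3.49 ± 0.43 at 3 h, and Ccl7 by 2.66 ± 0.40 at 24 h and 3.45 ± 0.40 at 3 h, with differences of -0.24 ± 0.61 and -0.79 ± 0.57 that did not pass. Ccl2 levels were 10.01, 10.88, 8.07 and 9.79 on the isoproterenol arrays and 6.84, 6.77 and 5.70 on the vehicle arrays at 24 h. They were 9.75, 10.42, 10.86 and 10.55 on the isoproterenol arrays and 6.37, 7.03 and 7.33 on the vehicle arrays at 3 h. Neither pair of groups overlapped, and isoproterenol replicate 3 of 24 h was the lowest of its group.

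Heat shock genes with a called difference had a lower effect at 24 h, and most endoplasmic reticulum genes with one, described further on, had a higher effect. Of 22 heat shock genes, 4 had a lower and 0 a higher effect at 24 h, and 9 rose at 3 h while 3 rose at 24 h. Hspa1a, the inducible HSP70 chaperone, had 9.13, 9.99, 8.09 and 8.82 on the isoproterenol arrays and 8.64, 8.80 and 8.57 on the vehicle arrays at 24 h. Hspa1a had 11.06, 12.95, 11.95 and 12.18 on the isoproterenol arrays and 8.34, 8.30 and 8.68 on the vehicle arrays at 3 h. Only the 3 h groups were apart, and the 24 h isoproterenol arrays spread from below to above the vehicle arrays. The difference was -3.26 ± 0.51, and transcripts of its near-identical copy Hspa1b, not tested separately here, may bind the same probes. The cochaperones Dnajb4 and Bag3 differed by -1.20 ± 0.19 and -1.03 ± 0.20.

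Of 26 oxidative stress genes and metallothioneins, 5 had a lower and 2 a higher effect at 24 h. Srxn1, which repairs overoxidized peroxiredoxins, differed by -2.68 ± 0.38, the glutathione synthesis gene Gclc by -1.46 ± 0.26, and thioredoxin reductase Txnrd1 by -1.34 ± 0.27. The metallothionein gene Mt2A was still raised at 24 h, by 1.46 ± 0.48, against 4.28 ± 0.48 at 3 h. Its difference of -2.82 ± 0.67 moved to -1.80 without vehicle replicate 2 of 3 h and did not pass in the fit of the 14 arrays alone or with the beta-actin covariate. Hmox1, heme oxygenase 1, rose by 1.49 ± 0.39 at 24 h and 3.13 ± 0.39 at 3 h, and its difference of -1.64 ± 0.55 did not pass (adjusted p = 0.0652). It passed in 4 of the 30 other fits run for Hmox1, among them those without isoproterenol replicate 2 of 24 h, isoproterenol replicate 1 of 3 h or vehicle replicate 1 of 3 h.

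Of 26 genes of amino acid supply and one-carbon metabolism, 3 had a lower and 1 a higher effect at 24 h. The cationic transporter Slc7a1 and the 2 chains of the large neutral amino acid transporter, Slc7a5 and Slc3a2, differed by -1.54 ± 0.28, -1.78 ± 0.36 and -0.97 ± 0.20. Aldh1l2, a mitochondrial folate enzyme, had an effect of 1.26 ± 0.37 at 24 h and -0.90 ± 0.37 at 3 h. Of the 26, 9 rose at both times with no called difference.

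Of 20 glucocorticoid targets, 5 had a lower and 1 a higher effect at 24 h (median difference -0.82). Sgk1, a kinase that regulates ion transport, differed by -2.16 ± 0.33 and Fam107a, an actin-associated protein, by -2.36 ± 0.34. Angptl4, an inhibitor of lipoprotein lipase, rose by 1.53 ± 0.40 at 24 h and 4.01 ± 0.40 at 3 h. Of 19 p53 and growth arrest genes 3 had a lower effect at 24 h, among them Gadd45g (1.42 ± 0.25 at 24 h and 3.06 ± 0.25 at 3 h). The matrix proteases of the ADAMTS family, Adamts9 and Adamts1, differed by -2.44 ± 0.22 and -2.06 ± 0.29, and the vessel-destabilizing ligand Angpt2 by -1.56 ± 0.33.

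The falls that ended included a cardiomyocyte gene, a metabolic transcription factor and lysosomal transporters. The first 8 were Nxpe1, Ccdc102a, Lrrc10, Ctns, Slc29a3, Cpne2, Fzd2 and Ly6e, and over all 152 genes the median effect was 0.20 at 24 h and -0.94 at 3 h. In the fit with that covariate 13 of the 152 stayed in the class, all 152 kept the sign of the difference, and the median difference was 0.90, against 1.13 without it.

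Lrrc10, a leucine-rich repeat protein of cardiomyocyte sarcomeres, had 11.03, 10.99, 11.67 and 11.02 on the isoproterenol arrays and 11.60, 11.39 and 11.76 on the vehicle arrays at 24 h. Lrrc10 had 9.48, 9.17, 8.70 and 9.21 on the isoproterenol arrays and 12.01, 11.75 and 11.52 on the vehicle arrays at 3 h. At 3 h all isoproterenol arrays were below all vehicle arrays, and at 24 h the groups overlapped with isoproterenol replicate 3 at the vehicle level. Its effect was -0.40 ± 0.19 at 24 h and -2.62 ± 0.19 at 3 h, a difference of 2.22 ± 0.27 (adjusted p = 2.38e-06), and it was the 1 of 29 sarcomere and excitation genes with a called difference.

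Nxpe1 differed most, by 2.37 ± 0.40. It had 7.72, 6.82, 8.40 and 7.80 on the isoproterenol arrays and 7.62, 8.32 and 8.27 on the vehicle arrays at 24 h. It had 5.22, 4.44, 5.84 and 5.61 on the isoproterenol arrays and 8.09, 7.65 and 8.35 on the vehicle arrays at 3 h. The isoproterenol arrays of 3 h formed a group of their own below the other 10 arrays. Klf15, a transcription factor of heart lipid and amino acid metabolism and a glucocorticoid target, had an effect of -0.60 ± 0.24 at 24 h and -2.10 ± 0.24 at 3 h.

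Ctns, the lysosomal cystine exporter, differed by 2.20 ± 0.56 and the nucleoside transporter Slc29a3 by 2.01 ± 0.46. Cpne2, a calcium-dependent membrane-binding copine, differed by 1.98 ± 0.36, the Wnt receptor Fzd2 by 1.94 ± 0.41, the lymphocyte antigen family member Ly6e by 1.84 ± 0.39 and Ccdc102a by 2.30 ± 0.27. The isoproterenol arrays of 3 h averaged below the filter level for Ctns, Slc29a3, Cpne2 and Ccdc102a, where the offset of 16 shrinks a fold, so these falls may be understated. Psmb9, an immunoproteasome subunit, was the 1 of 21 interferon genes with a called difference (0.58 ± 0.23 at 24 h and -0.83 ± 0.23 at 3 h).

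The apelin receptor and its ligand were called lower at different times. Aplnr, the receptor, had an effect of -0.61 ± 0.32 at 24 h, not called, and -2.25 ± 0.32 at 3 h. Its isoproterenol arrays were nevertheless all below its vehicle arrays at 24 h as well as at 3 h. Apln, the peptide, had an effect of -1.91 ± 0.27 at 24 h and 0.17 ± 0.27 at 3 h. Apln levels were 7.32, 6.57, 7.50 and 6.48 on the isoproterenol arrays and 8.82, 8.81 and 9.01 on the vehicle arrays at 24 h. They were 8.66, 8.80, 8.83 and 9.12 on the isoproterenol arrays and 8.75, 8.59 and 8.73 on the vehicle arrays at 3 h. All 4 isoproterenol arrays of 24 h were below the other 10 arrays. The difference was -2.08 ± 0.38 for Apln and 1.63 ± 0.46 for Aplnr. The Aplnr difference (adjusted p = 0.0276) did not pass in 7 of 14 fits that left out 1 array (up to 0.0946). These were the fits without isoproterenol replicate 4 or vehicle replicate 1 or 2 of 24 h, or without isoproterenol replicate 2 or 4 or vehicle replicate 1 or 2 of 3 h.

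**Figure D4:**
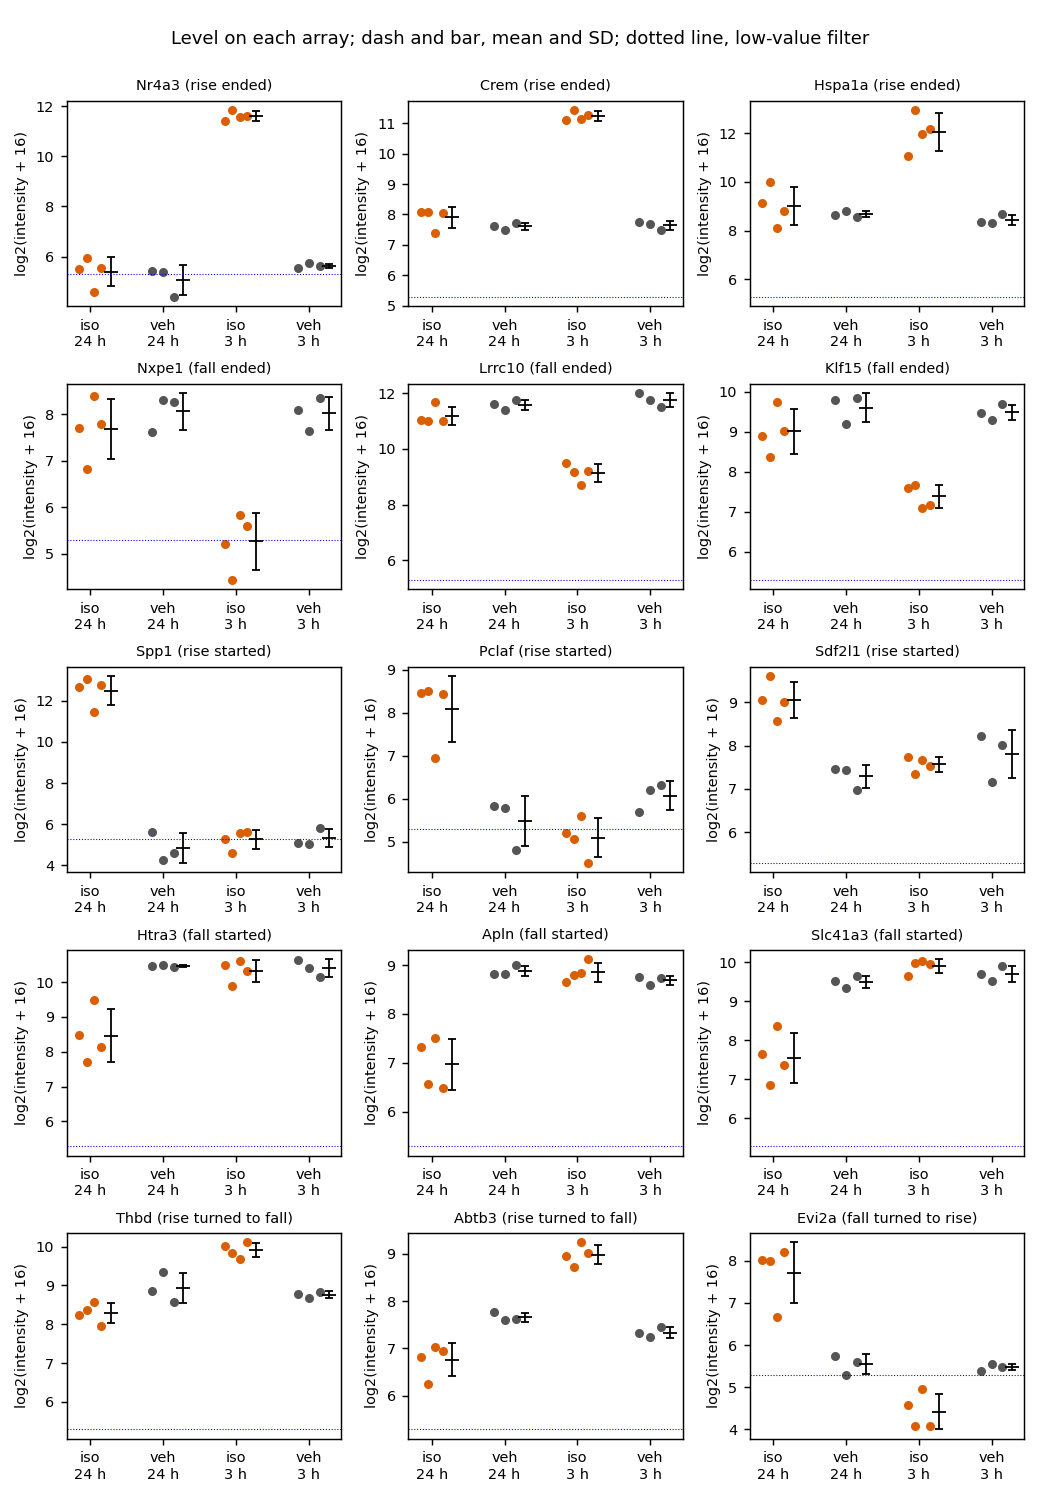
Level on each array (vertical axis, log2(intensity + 16)) for 15 genes, with isoproterenol in orange and vehicle in grey, 24 h left of 3 h, the mean with its SD as a dash and bar, and the filter level as a dotted line. In the first 2 rows the isoproterenol arrays of 3 h stand apart, in the next 2 those of 24 h, and in the last row both, on opposite sides of vehicle.

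The rises that started held genes of monocytes and macrophages, of cell division and of the endoplasmic reticulum. The first 8 were Spp1, Gpnmb, RT1-Bb, Pclaf, Cotl1, S100a4, Cd68 and Cd300c2, and over all 374 genes the median effect was 1.14 at 24 h and -0.20 at 3 h. Adding the beta-actin covariate left 12 of the 374 in the class and 199 still called higher at 24 h. All 374 kept the sign of the difference, and its median was 0.94, against 1.35 without the covariate. With the array median as a covariate 112 stayed in the class.

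Spp1, osteopontin, a secreted phosphoprotein of activated macrophages and repair tissue, had 12.65, 13.07, 11.46 and 12.78 on the isoproterenol arrays and 5.65, 4.26 and 4.62 on the vehicle arrays at 24 h. Spp1 had 5.30, 4.61, 5.57 and 5.61 on the isoproterenol arrays and 5.09, 5.06 and 5.83 on the vehicle arrays at 3 h. The 4 isoproterenol arrays of 24 h stood more than 5 log2 units above the other 10, which lay near the filter level. Spp1 rose by 7.65 ± 0.57 at 24 h (201-fold) and had an effect of -0.06 ± 0.57 at 3 h. The difference was 7.71 ± 0.81 (adjusted p = 1.78e-07) and the call held in all 30 other fits run for it.

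Gpnmb, a membrane glycoprotein of phagocytes, differed by 4.43 ± 0.69. It had 11.80, 12.21, 11.03 and 12.18 on the isoproterenol arrays and 7.44, 6.94 and 7.04 on the vehicle arrays at 24 h. It had 6.24, 6.12, 6.77 and 6.27 on the isoproterenol arrays and 5.94, 6.78 and 5.60 on the vehicle arrays at 3 h. Again only the isoproterenol arrays of 24 h were apart. Under the beta-actin covariate its difference of 3.28 did not pass (adjusted p = 0.053), while its rise at 24 h did (4.09).

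Of 38 monocyte and macrophage markers, 20 had a higher and 0 a lower effect at 24 h, with a median difference of 1.325. By time, 27 rose at 24 h and 2 at 3 h. Cd68, a lysosomal glycoprotein of macrophages, differed by 3.12 ± 0.73, Aif1, an actin-binding protein of macrophages, by 3.01 ± 0.56 (0.09 for its other probe set), the lectin Lgals3 by 2.74 ± 0.57 and the elastase Mmp12 by 2.43 ± 0.54. With the beta-actin covariate the differences of these 4 did not pass (adjusted p = 0.214, 0.223, 0.258 and 0.211), while their rises at 24 h did. At 3 h the effect was -0.38 for Cd68, -0.85 for Aif1 and 1.00 for Lgals3, none called. There the isoproterenol arrays were all below the vehicle arrays for Aif1 and all above them for Lgals3. The summed intensity of the 38 markers was 32410 to 61700 on isoproterenol arrays and 20540 to 23840 on vehicle arrays at 24 h, against 20900 to 24130 on isoproterenol arrays and 21690 to 23090 on vehicle arrays at 3 h. In whole tissue, more cells of a type and more RNA per cell cannot be told apart. Of the markers, Itgam, Mmp12 and Trem2 averaged below the filter level in the 3 other groups and above it on the isoproterenol arrays of 24 h, and Ms4a7 averaged below it in all 4 groups.

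Of 8 neutrophil markers tested, 6 averaged below the filter level in both vehicle groups and Cxcr1 and Mmp8 in all 4 groups, while Il1r2 and Np4 averaged above it only on the isoproterenol arrays of 3 h. The summed intensity of the 8 was 190.3 to 315.1 on isoproterenol arrays and 136.7 to 223.5 on vehicle arrays at 24 h, against 523.8 to 765.4 on isoproterenol arrays and 181 to 271.4 on vehicle arrays at 3 h. Of the 8, 1 rose at 24 h, and at 3 h 4 rose and 4 did not pass. Only S100a9, a calcium-binding protein of neutrophils, had a called difference, -1.69 ± 0.52. Its adjusted p of 0.0467 stayed under 0.05 in 5 of 14 fits that left out 1 array: those without isoproterenol replicate 1 or vehicle replicate 2 of 24 h, or without isoproterenol replicate 3 or vehicle replicate 2 or 3 of 3 h. Lymphocyte and mast cell markers had no called difference among 14.

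RT1-Bb, a class II histocompatibility chain, varied widely among arrays of the same group. Its levels were 10.02, 9.34, 8.72 and 9.54 on the isoproterenol arrays and 5.32, 7.76 and 7.11 on the vehicle arrays at 24 h. They were 9.26, 5.39, 4.65 and 8.44 on the isoproterenol arrays and 8.54, 8.76 and 8.71 on the vehicle arrays at 3 h. The isoproterenol arrays of 3 h split over more than 4 log2 units, so the difference had a wide error, 4.41 ± 1.25. It passed (adjusted p = 0.0294) with all arrays and in 8 of 14 fits that left out 1. It failed without isoproterenol replicate 1 or vehicle replicate 1 of 24 h, and without isoproterenol replicate 2 or 3 or vehicle replicate 1 or 2 of 3 h. The actin-binding protein Cotl1, the calcium-binding S100a4 and the myeloid receptor family member Cd300c2 were steadier, with differences of 3.28 ± 0.61, 3.13 ± 0.54 and 3.08 ± 0.63. The lysosomal proteases Ctsz and Ctsd differed by 2.26 ± 0.56 and 0.82 ± 0.20, and 4 of 26 complement and phagocyte lysosome genes were higher and 1 lower at 24 h.

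Of 46 cell cycle genes, 14 had a higher and 0 a lower effect at 24 h (median difference 0.885). At 24 h 19 rose and 27 did not pass, and none rose at 3 h. Pclaf, which binds the replication clamp PCNA, had 8.46, 8.52, 6.94 and 8.44 on the isoproterenol arrays and 5.84, 5.79 and 4.80 on the vehicle arrays at 24 h. Pclaf had 5.19, 5.06, 5.59 and 4.50 on the isoproterenol arrays and 5.68, 6.20 and 6.32 on the vehicle arrays at 3 h. All 4 isoproterenol arrays of 24 h were above the other 10, and at 3 h the isoproterenol arrays were below the vehicle arrays. The difference was 3.59 ± 0.50 for Pclaf, 2.75 ± 0.50 and 1.93 ± 0.34 for the helicase subunits Mcm3 and Mcm7, 2.55 ± 0.54 for Ccna2, cyclin A2, and 1.93 ± 0.43 for the mitotic kinase Plk1. Part of these differences came from lower levels at 3 h: the effect there was -0.98 for Pclaf, -1.02 for Mcm3 and -0.45 for Ccna2. None of these was called, but for each the isoproterenol arrays were all below the vehicle arrays. At 24 h the effects were 2.61, 1.73 and 2.10. Pclaf and Plk1 kept their calls in all 30 other fits run for them, whereas with the beta-actin covariate the differences of Mcm3, Mcm7 and Ccna2 did not pass (adjusted p = 0.0537, 0.153 and 0.0963).

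The promoters of Mcm3 and Mcm7 hold an E2F site, the element through which replication genes are switched on at the start of DNA synthesis, and that of Creld2 an endoplasmic reticulum stress element. They are shown with these sites in capitals, from RefSeq (GRCr8) over the same window: Mcm3 (chr9:30733697-30733996, - strand), Mcm7 (chr12:22163129-22163428, - strand) and Creld2 (chr7:121789134-121789433, + strand).
Mcm3: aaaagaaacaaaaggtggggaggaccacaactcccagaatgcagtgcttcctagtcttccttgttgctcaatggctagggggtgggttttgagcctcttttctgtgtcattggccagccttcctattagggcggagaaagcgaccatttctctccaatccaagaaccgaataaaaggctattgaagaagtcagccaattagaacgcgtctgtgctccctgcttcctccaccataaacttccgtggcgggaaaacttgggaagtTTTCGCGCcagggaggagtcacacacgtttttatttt
Mcm7: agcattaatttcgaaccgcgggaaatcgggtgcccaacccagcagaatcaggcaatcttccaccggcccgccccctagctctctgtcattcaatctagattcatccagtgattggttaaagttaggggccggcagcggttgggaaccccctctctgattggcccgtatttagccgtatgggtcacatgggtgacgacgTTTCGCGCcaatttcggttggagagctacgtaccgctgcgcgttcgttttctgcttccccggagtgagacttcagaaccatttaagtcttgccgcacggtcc
Creld2: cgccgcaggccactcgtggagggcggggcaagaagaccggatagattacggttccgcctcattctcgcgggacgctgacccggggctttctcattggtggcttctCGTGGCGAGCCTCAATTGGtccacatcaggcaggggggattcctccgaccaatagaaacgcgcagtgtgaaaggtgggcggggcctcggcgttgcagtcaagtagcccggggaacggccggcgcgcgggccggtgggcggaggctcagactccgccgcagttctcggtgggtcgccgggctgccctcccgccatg
An E2F site (TTTCGCGC or TTTGGCGC, either strand) stood in 14 of the 292 promoters available for genes whose rise started (4.79%), against 138 of 9629 (1.43%). Those 14 included Mcm2, Mcm3, Mcm5, Mcm6 and Mcm7. The endoplasmic reticulum stress element, on either strand, stood in 2 of the 292, Calr and Creld2 (0.685%), against 14 of 9629 (0.145%). The heat shock element was rare in the promoters of ended rises (0.543%) as in all (0.405%). One E2F match among all promoters overlapped a CArG box.

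Of 28 endoplasmic reticulum chaperone and unfolded protein response genes, 8 had a higher and 3 a lower effect at 24 h (median difference 0.47), and 15 rose at 24 h while 3 rose at 3 h. The chaperone complex subunit Sdf2l1 had 9.04, 9.60, 8.57 and 9.0 on the isoproterenol arrays and 7.46, 7.43 and 6.98 on the vehicle arrays at 24 h. It had 7.73, 7.35, 7.67 and 7.52 on the isoproterenol arrays and 8.22, 7.17 and 8.01 on the vehicle arrays at 3 h. The 24 h groups did not overlap and the 3 h groups did. Its difference was 2.00 ± 0.35, and those of Creld2, the translocon subunit Sec61b and the disulfide isomerase Pdia4 were 1.79 ± 0.42, 2.06 ± 0.46 and 1.62 ± 0.41. The 3 with a lower effect were Atf4, Trib3 and Ppp1r15a, of the branch that acts through the factor ATF4, whose rises at 3 h ended (differences -0.81, -1.32 and -1.30). These 3 were not followed through the other fits, and another Trib3 probe set differed by 0.10.

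Of 29 ribosome biogenesis genes, 15 rose at 24 h and 18 at 3 h, 11 of them at both, and 2 had a higher and 1 a lower effect at 24 h, a share near that of all genes. Nhp2 and Nop16, which act in RNA modification and ribosome assembly, differed by 1.52 ± 0.29 and 0.97 ± 0.24.

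Genes of the extracellular matrix list with a called difference had a higher effect at 24 h, unlike the matrix enzymes and inhibitors (3 higher and 7 lower) described further on. Of 46 extracellular matrix genes, 5 had a higher and 0 a lower effect at 24 h, against 4.84% and 3.49% of all genes. The 5 include Spp1, also counted as a macrophage marker, and Col1a1, described below. By time, 16 of the 46 rose at 24 h and 4 at 3 h. Fn1, fibronectin, had 11.30, 11.76, 10.79 and 11.76 on the isoproterenol arrays and 8.98, 9.30 and 8.85 on the vehicle arrays at 24 h. It had 9.44, 8.83, 9.17 and 9.25 on the isoproterenol arrays and 8.66, 9.16 and 8.74 on the vehicle arrays at 3 h. Only the isoproterenol arrays of 24 h were raised, and the difference was 2.04 ± 0.51. Postn, a matricellular protein of activated fibroblasts, rose by 3.68 ± 0.56 at 24 h with an effect of 1.18 ± 0.56 at 3 h, and its difference of 2.50 ± 0.80 just missed the threshold (adjusted p = 0.0537). It passed in 10 of the 30 other fits run for Postn, among them those without isoproterenol replicate 3 or vehicle replicate 2 of 24 h.

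Col1a1, a fibrillar collagen of scar and stroma, had effects of 0.69 ± 0.35 at 24 h and -1.01 ± 0.35 at 3 h, neither called, and a difference of 1.70 ± 0.49 (adjusted p = 0.0321). That call stood in 5 of 14 fits without 1 array: without isoproterenol replicate 2 or 3 or vehicle replicate 1 of 24 h, or without isoproterenol replicate 1 or vehicle replicate 3 of 3 h. Col3a1, another fibrillar collagen, differed by 0.46 ± 0.25, which did not pass. Of 20 fibroblast and mural markers 4 had a higher effect at 24 h than at 3 h, against 4.84% of all genes. None of the 20 had a rise that started, and 2 had a fall that ended. By time, 2 rose and 3 fell at 24 h, and 1 rose and 2 fell at 3 h. The summed intensity of the 20 was 28140 to 33250 on isoproterenol arrays and 26210 to 30450 on vehicle arrays at 24 h, against 22120 to 29560 on isoproterenol arrays and 26510 to 30230 on vehicle arrays at 3 h.

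Among hypertrophy genes, 4 of 29 had a higher and 1 a lower effect at 24 h, against 4.84% and 3.49% of all genes, and 7 rose at both times. Nppa, the atrial natriuretic peptide, rose by 2.75 ± 0.51 at 24 h and had an effect of 0.04 ± 0.51 at 3 h. Its levels were 12.80, 13.31, 12.15 and 12.93 on the isoproterenol arrays and 10.11, 10.90 and 9.13 on the vehicle arrays at 24 h. They were 10.65, 8.48, 10.45 and 10.49 on the isoproterenol arrays and 10.25, 10.76 and 8.93 on the vehicle arrays at 3 h. The 24 h groups were apart, and the vehicle arrays spread over more than 1.5 log2 units at either time. The difference of 2.72 ± 0.72 failed without vehicle replicate 3 of 24 h or without vehicle replicate 1 or 2 of 3 h (adjusted p up to 0.0793), and also with median centring, trimmed mean scaling, robust empirical Bayes or either covariate. Of 11 atrial, mesothelial and nerve markers, Nppa had the 1 called difference, and the median difference of the list was -0.188. The atrial myosin light chain genes Myl7 and Myl4 had effects of -0.80 and -0.52 at 24 h and 0.68 and 0.68 at 3 h, none of which passed.

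Nppb, the ventricular natriuretic peptide, rose by 0.75 ± 0.24 at 24 h and 0.76 ± 0.24 at 3 h, with a difference of -0.01 ± 0.34. Xirp1, an actin-binding protein of intercalated discs, rose by 0.60 ± 0.17 at 24 h and 2.68 ± 0.17 at 3 h, and Tubb5, a beta-tubulin, by 1.38 ± 0.20 at 24 h with -0.04 ± 0.20 at 3 h. The myosin heavy chain genes gave no called difference, Myh6 -0.03 ± 0.11 and Myh7 0.65 ± 0.43. Myh6, the main adult form in rat ventricle, lay at 13.31, 13.48, 13.22 and 13.29 on the isoproterenol arrays and 13.37, 13.31 and 13.33 on the vehicle arrays at 24 h. It lay at 13.29, 13.33, 13.29 and 13.37 on the isoproterenol arrays and 13.29, 13.26 and 13.33 on the vehicle arrays at 3 h. The 14 arrays spanned 13.22 to 13.48, near the top of the scale, and all 29 sarcomere and excitation genes tested averaged above the filter level in every group.

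The falls that started were smaller and fewer. The first 8 were Cd1d1, Slc22a3, Slc41a3, Apln, Htra3, Kcna2, Tmem150c and Septin3, and over all 106 genes the median effect was -0.87 at 24 h and 0.19 at 3 h. In the beta-actin covariate fit none of the 106 stayed in the class and 38 were still called lower at 24 h. The sign of the difference held for 105, and its median was -0.57, against -1.04 without the covariate.

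Slc41a3, a magnesium transporter, had 7.64, 6.85, 8.38 and 7.36 on the isoproterenol arrays and 9.51, 9.33 and 9.64 on the vehicle arrays at 24 h. Slc41a3 had 9.65, 9.97, 10.03 and 9.96 on the isoproterenol arrays and 9.69, 9.51 and 9.90 on the vehicle arrays at 3 h. All 4 isoproterenol arrays of 24 h were below the other 10 arrays. The difference was -2.14 ± 0.35 (adjusted p = 0.000205), and -1.92 ± 0.34 for the secreted serine protease Htra3. Slc22a3, an organic cation transporter that takes up catecholamines outside neurons, had an effect of -2.22 ± 0.36 at 24 h and 0.20 ± 0.36 at 3 h.

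Cd1d1, which presents lipid antigens, had the largest difference of the class, -3.64 ± 0.74, but its vehicle level moved as well. It had 6.87, 6.68, 5.47 and 5.68 on the isoproterenol arrays and 8.58, 8.63 and 8.69 on the vehicle arrays at 24 h. It had 5.67, 7.48, 7.34 and 7.83 on the isoproterenol arrays and 5.62, 5.78 and 6.30 on the vehicle arrays at 3 h. The vehicle arrays of 24 h lay 2.73 ± 0.56 above those of 3 h (adjusted p = 0.0402), while the 24 h isoproterenol arrays overlapped the 3 h vehicle arrays. It was the 1 gene with a called difference of effect whose vehicle groups also differed. Kcna2, a voltage-gated potassium channel, differed by -1.77 ± 0.44. The Tmem150c difference of -1.64 ± 0.40 missed the threshold once vehicle replicate 3 of 24 h was left out (adjusted p = 0.0624). Septin3, a cytoskeletal GTPase, differed by -1.62 ± 0.51 and passed in 4 of 14 fits without 1 array, those without isoproterenol replicate 2 of 24 h, or without isoproterenol replicate 1 or 4 or vehicle replicate 3 of 3 h.

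Many genes of energy metabolism fell at 24 h without a called difference. Among all genes 7.19% fell at 24 h, 6.33% fell and 6.94% rose at 3 h, and 3.49% had a lower effect at 24 h. Of 33 genes of the citric acid cycle and branched-chain amino acid breakdown, 20 fell at 24 h and none was called at 3 h, yet 2 had a called difference (median difference -0.31). These were Pcca, of propionate breakdown, and Hibadh, of valine breakdown, at -0.96 ± 0.29 and -0.82 ± 0.23. Pcca passed in 3 of 14 fits without 1 array (isoproterenol replicate 3 or vehicle replicate 1 of 24 h, or vehicle replicate 3 of 3 h). Hibadh passed in 7 of 14: without isoproterenol replicate 1 or 3 or vehicle replicate 1 of 24 h, or without isoproterenol replicate 1, 2 or 4 or vehicle replicate 3 of 3 h. Of 38 fatty acid genes, 15 fell at 24 h, and 4 fell and 3 rose at 3 h. Of 41 oxidative phosphorylation genes 5 fell at 24 h, none was called at 3 h and none had a called difference. The median differences of the citric acid cycle and fatty acid lists changed sign without normalization, to 0.225 and 0.218. The counts of falls at 24 h depend on the processing too. Over all genes 895 were called lower at 24 h, against 13 without normalization and 226 with the beta-actin covariate. Falls at 24 h by list were not counted in those fits. Pdk4, which restrains glucose oxidation, had effects of 0.87 ± 0.30 at 24 h and 1.35 ± 0.30 at 3 h, and Ucp3, a mitochondrial uncoupling protein, -0.14 ± 0.28 and -1.05 ± 0.28 at the same times, both with a difference that did not pass. The summed intensity of 29 sarcomere genes was 138900 to 170800 on isoproterenol arrays and 174900 to 180700 on vehicle arrays at 24 h, against 164900 to 167800 on isoproterenol arrays and 171500 to 173200 on vehicle arrays at 3 h.

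Of 36 matrix enzymes and inhibitors, 3 had a higher and 7 a lower effect at 24 h, against 4.84% and 3.49% of all genes, the lower ones including Htra3 and the 2 ADAMTS genes above. Of 26 angiogenesis and hypoxia genes 2 were higher and 3 lower, of 18 endothelial markers 3 were higher and 2 lower, and of 23 ion channel genes 1 was higher and 1 lower. The 3 higher endothelial markers had falls that ended and the 2 lower ones rises that ended. The ion channel counts are near the 4.84% and 3.49% of all genes. Markers of erythroid cells, adipocytes and skeletal muscle had none.

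**Figure D5:**
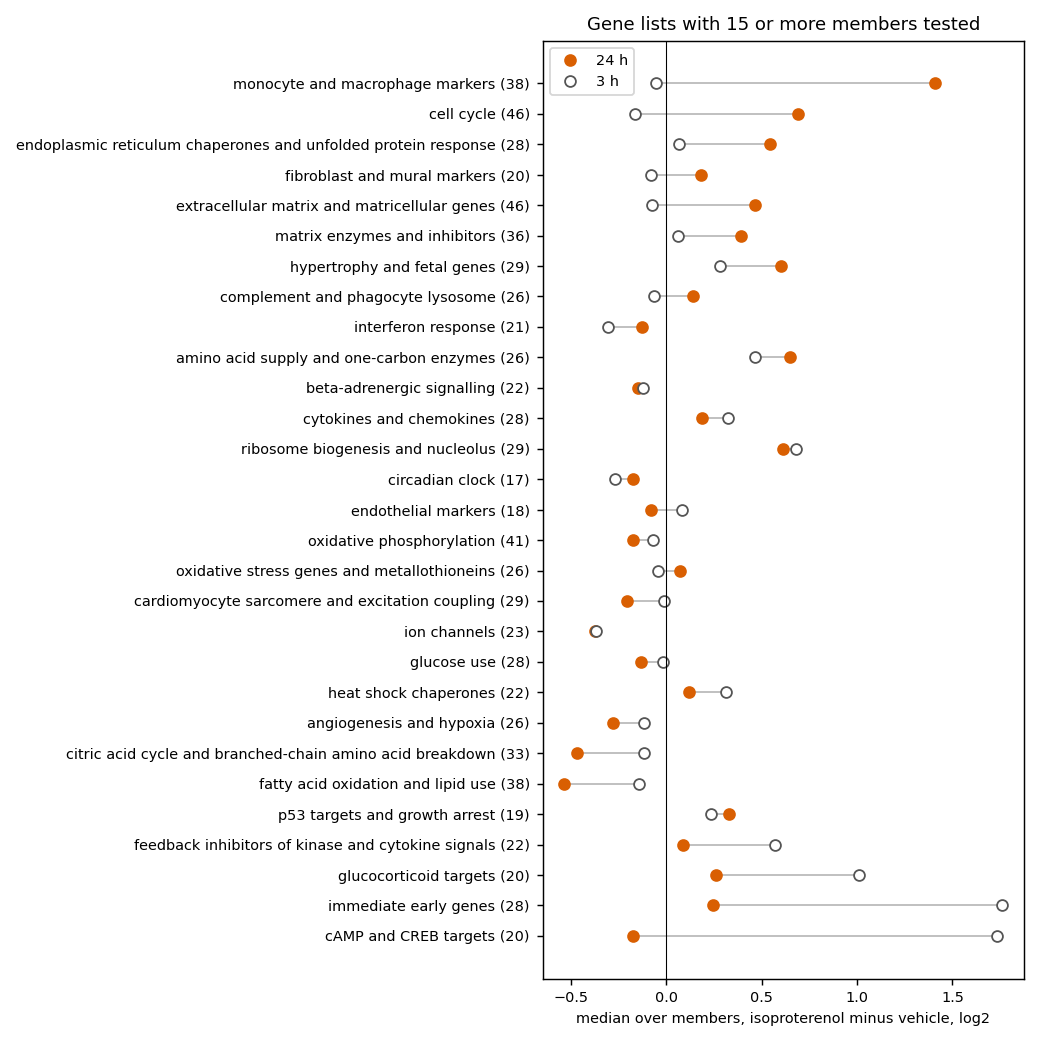
Median isoproterenol effect (horizontal axis, log2) at 24 h (filled) and 3 h (open) for the gene lists with at least 15 members tested, sorted by the median difference, with the number of members in brackets. Monocyte and macrophage markers had the largest shift upward (1.41 at 24 h and -0.05 at 3 h), and cyclic AMP and CREB targets the largest shift downward (-0.17 at 24 h and 1.73 at 3 h).

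A rise turned into a fall for 11 genes. The first 8 were Abtb3, Tent5c, Thbd, Tcp11l2, Nrip1, Klf4, Rhoj and Usp36. Thbd, thrombomodulin, the endothelial anticoagulant receptor, had 8.25, 8.36, 8.57 and 7.96 on the isoproterenol arrays and 8.86, 9.34 and 8.57 on the vehicle arrays at 24 h. Thbd had 10.02, 9.84, 9.68 and 10.11 on the isoproterenol arrays and 8.79, 8.67 and 8.84 on the vehicle arrays at 3 h. Isoproterenol arrays were at or below the lowest vehicle array at 24 h and all above vehicle at 3 h. Its effect was -0.64 ± 0.19 at 24 h and 1.15 ± 0.19 at 3 h.

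Abtb3 had 6.82, 6.25, 7.02 and 6.95 on the isoproterenol arrays and 7.77, 7.60 and 7.62 on the vehicle arrays at 24 h. It had 8.96, 8.73, 9.24 and 9.01 on the isoproterenol arrays and 7.32, 7.24 and 7.45 on the vehicle arrays at 3 h. The groups were apart at both times, on opposite sides, and the difference was -2.55 ± 0.30 (adjusted p = 2.06e-06). Klf4, a zinc finger factor of endothelium and smooth muscle, had effects of -0.55 ± 0.17 at 24 h and 0.87 ± 0.17 at 3 h, and Rhoj, a small GTPase of endothelium, -0.52 ± 0.14 at 24 h and 0.74 ± 0.14 at 3 h. The nuclear receptor corepressor Nrip1 had effects of -0.87 ± 0.19 at 24 h and 0.67 ± 0.19 at 3 h. Tent5c, a poly(A) polymerase, differed by -1.92 ± 0.38, the nucleolar deubiquitinase Usp36 by -1.17 ± 0.20 and Tcp11l2 by -1.71 ± 0.31. At 1 h 4 of the 11 were higher and none lower. With the beta-actin covariate none of the 11 fell by call at 24 h and 5 kept the difference.

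A fall turned into a rise for 17 genes, and the first 8 were Pck2, Evi2a, Tmem176b, Pycard, Camkk1, H1f2, Dock10 and Rnf181. Pck2, the mitochondrial form of phosphoenolpyruvate carboxykinase, had 6.55, 6.50, 6.20 and 6.94 on the isoproterenol arrays and 6.02, 4.21 and 4.62 on the vehicle arrays at 24 h. Pck2 had 4.93, 4.24, 5.11 and 4.54 on the isoproterenol arrays and 6.47, 6.18 and 6.34 on the vehicle arrays at 3 h. Isoproterenol arrays were above vehicle at 24 h and below it at 3 h, and the vehicle arrays themselves were lower at 24 h, where replicates 2 and 3 lay below the filter level. The effect was 1.60 ± 0.38 at 24 h and -1.62 ± 0.38 at 3 h, with a vehicle shift of -1.38 ± 0.41 between the times. The difference was 3.22 for this probe set and 0.54 for the other probe set of Pck2.

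Evi2a had 8.02, 7.99, 6.66 and 8.20 on the isoproterenol arrays and 5.75, 5.30 and 5.61 on the vehicle arrays at 24 h. It had 4.58, 4.09, 4.96 and 4.08 on the isoproterenol arrays and 5.39, 5.54 and 5.49 on the vehicle arrays at 3 h. The order of the groups reversed between the times, with the 3 h isoproterenol arrays below the filter level, and the difference was 3.21 ± 0.49. Pycard, the adaptor protein of inflammasomes, had effects of 0.90 ± 0.27 at 24 h and -0.95 ± 0.27 at 3 h, and the membrane protein Tmem176b 1.06 ± 0.34 at 24 h and -1.40 ± 0.34 at 3 h. H1f2, a linker histone, Dock10, an activator of small GTPases, Camkk1, a calmodulin-dependent kinase kinase, and the ubiquitin ligase Rnf181 differed by 1.44 ± 0.21, 1.39 ± 0.26, 1.59 ± 0.29 and 1.38 ± 0.25. At 72 h 11 of the 17 were higher and none lower, against 13.3% higher among all genes. With the beta-actin covariate 3 of the 17 rose by call at 24 h and 3 kept the difference.

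Some rises were called at both times with no called difference. The 8 genes with the largest effect in 1 direction at both times were Timp1, Ccl2, Tubb6, Hamp, Ccl7, Rnd1, Reg3b and Tnfrsf12a. Timp1, an inhibitor of metalloproteinases, had 10.93, 11.49, 10.26 and 11.00 on the isoproterenol arrays and 6.89, 6.53 and 6.62 on the vehicle arrays at 24 h. It had 10.39, 11.34, 11.03 and 11.73 on the isoproterenol arrays and 6.54, 7.43 and 6.62 on the vehicle arrays at 3 h. Both isoproterenol groups were above both vehicle groups, and the effect was 4.24 ± 0.54 at 24 h and 4.26 ± 0.54 at 3 h with a difference of -0.02 ± 0.76.

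Tubb6, a beta-tubulin, rose by 3.10 ± 0.41 at 24 h and 2.79 ± 0.41 at 3 h, and Rnd1, a small GTPase that loosens adhesion, by 2.62 ± 0.34 at 24 h and 3.49 ± 0.34 at 3 h. Hamp, the iron hormone hepcidin, rose by 2.71 ± 0.51 at 24 h and 2.91 ± 0.51 at 3 h. Reg3b, a secreted lectin, rose by 2.61 ± 0.67 at 24 h and 2.98 ± 0.67 at 3 h, and Tnfrsf12a, the receptor of the cytokine TWEAK, by 2.61 ± 0.41 at 24 h and 2.51 ± 0.41 at 3 h. The standard errors of these differences lay between 0.49 and 0.94, so a failure to pass does not show equal effects. Rises that were still called at 24 h but smaller numbered 28, among them Sphk1, the kinase that makes sphingosine 1-phosphate, with 1.21 ± 0.25 at 24 h and 3.98 ± 0.25 at 3 h.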

How the data were processed

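Heart RNA of 30 samples was hybridised to 1-colour Affymetrix RAT230_2 arrays, per the labels' protocols. The authors deposited 1 linear intensity per probe set and array; background correction, summarisation and scaling: not given in the sources used here. Intensity values reach 15512 and 29 equal 0. From these, log2(intensity + 16) was quantile normalized over all 30 arrays, because array medians spanned 1.21 log2 units. After leaving out 57 control probe sets, 24292 reached an intensity of 23 (the 40th percentile) in at least 3 arrays. limma 3.58.1 in R 4.3.3 fitted 8 group means with an intensity trend (22 residual degrees of freedom), and two-sided moderated tests were adjusted by Benjamini-Hochberg over all probe sets. The number of arrays limits the precision. Correlations between arrays of a group were 0.934 to 0.984.

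Names came from a platform annotation table, updated through gene records: of 31099 probe sets, 20764 were named through a gene number, 2 through an accession and 66 as listed, while 436 had several genes and 9780 were not listed. The script was tested on simulated data. The 35 lists (947 genes, 812 tested) and the members were chosen with earlier results of these data known. Named genes were the 8 of each class with the largest difference and non-overlapping arrays, up to 5 per list with the largest called difference, a fixed set, and the 8 with the largest effect kept; list members whose call rested on single arrays were counted and mostly not named. Alternatives covered the pseudocount, filter, normalization, variance model, array weights, arrays used, replicate block, a fold threshold and each array left out, and, added after the data were seen, a filter on normalized values and both covariates.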

Additional observations from a re-analysis of the deposited data

Results flagged for a closer look

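The effect of isoproterenol differed between 24 h and 3 h by the test of the difference itself for 603 genes with a higher and 434 genes with a lower effect at 24 h, as described above. Named genes called in opposite directions at the 2 times were flagged one by one. The difference was -2.55 for Abtb3, -1.92 for Tent5c, -1.79 for Thbd, -1.71 for Tcp11l2, -1.54 for Nrip1, -1.42 for Klf4, -1.25 for Rhoj and -1.17 for Usp36, whose rise became a fall. It was 3.22 for Pck2, 3.21 for Evi2a, 2.45 for Tmem176b, 1.85 for Pycard, 1.59 for Camkk1, 1.44 for H1f2, 1.39 for Dock10 and 1.38 for Rnf181, whose fall became a rise.

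Single arrays far from the other 3 of their group were found for 17 of 248 isoproterenol groups looked at (124 genes, each at 24 h and 3 h), where chance flags about 1 in 20. The gap to the nearest array, as a share of the group's range, was 0.95 for Pclaf, 0.94 for Fam107a, 0.935 for Lrrc10, 0.93 for Crem, 0.922 for Tubb5, 0.884 for Mcm7, 0.879 for H1f2, 0.865 for Evi2a and 0.855 for Rnd1 at 24 h. In each of these 9 groups of 24 h, replicate 3 was the array apart and lay on the vehicle side. At 3 h the share was 0.962 for Ramp2, 0.946 for Aldh1l2, 0.934 for Klf4, 0.922 for Cd68, 0.909 for Nppa, 0.849 for Dnajb4, 0.843 for Mcm3 and 0.842 for S100a4.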

How the results depend on the processing

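Of the 107 followed genes with a called difference, 31 kept their call in every other fit run for them, 29 or 30 a gene, 14 of which left out 1 array. None of the 107 changed sign in these fits, and the rule asking for a log2 change of 1 was applied to counts alone. Of the 17 followed genes with none, 2 gained a call (Hmox1 and Postn). Counts that moved by over 1.5 times follow, in the order higher and lower difference, higher and lower at 24 h, higher and lower at 3 h, vehicle, then the classes, with the moved values alone given. Without normalization they were 971, 37, 1962, 13, 193, 110 and 1, with 27 ended rises, 70 ended falls, 675 started rises, 2 started falls, 0 rises and 6 falls that turned, 98 kept rises and 1 kept fall. With the beta-actin covariate they were 37 and 117, at 24 h 553 and 226, and vehicle 8, with 113 ended rises, 20 ended falls, 15 started rises, 0 started falls, 1 rise and 2 falls that turned, 130 kept rises and 40 kept falls. With the array median as a covariate they were 221 and 267, at 24 h 767 and 490, and vehicle 20, with 81 ended falls, 119 started rises, 25 started falls, 5 rises and 7 falls that turned, and 72 kept falls. With array weights they were 1086 and 746, at 24 h 1908 and 1506, and vehicle 62, with 689 started rises, 307 started falls, 26 rises and 42 falls that turned, and 206 kept falls. In a fit of the 14 arrays alone they were 386 and 287, with 501 lower at 3 h, vehicle 6, 67 ended falls, 59 started falls, 10 falls that turned and 74 kept falls. Median centring gave 393 higher differences, 405 lower at 24 h, 370 lower at 3 h, vehicle 2, 83 ended falls, 62 started falls, 4 rises and 8 falls that turned, and 30 kept falls. The trimmed mean gave 953 higher differences, 1205 lower at 3 h, 343 ended falls and 47 falls that turned. Cyclic loess gave 10 falls that turned, a fit with no intensity trend vehicle 5, 69 started falls and 11 falls that turned, and no filter vehicle 3. Requiring a log2 change of 1 as well gave 504 and 151 at 24 h, 427 and 186 at 3 h, vehicle 6, 55 ended falls, 212 started rises, 41 started falls, 0 rises and 3 falls that turned, 90 kept rises and 13 kept falls. The last is set by the stricter rule, and for the others the cause was not tested.

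With the replicate number as a block, 499 genes were higher and 377 lower, with vehicle 4 and 7 falls that turned. No label ties equal numbers to a shared source, and the deviations of same-numbered arrays correlated at -0.027 to 0.118. Leaving out 1 array gave 360 to 977 higher and 282 to 661 lower differences, at 24 h 726 to 1688 higher and 377 to 1275 lower, at 3 h 647 to 917 higher and 488 to 847 lower, and vehicle 0 to 123. The classes then held 189 to 328 ended rises, 77 to 221 ended falls, 192 to 659 started rises, 39 to 308 started falls, 4 to 23 rises and 6 to 32 falls that turned, 168 to 348 kept rises and 63 to 184 kept falls. Most high ends came without isoproterenol replicate 3 of 24 h and most low ends without isoproterenol replicate 2 of 24 h or vehicle replicate 2 of 3 h.

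Differences that changed sign all belonged to genes with no called difference or to list medians. A pseudocount of 64 gave 0.074 for Hamp, 0.054 for Reg3b and -0.04 for Tnfrsf12a. No normalization gave 0.289 for Ccl2, 0.145 for Ccl7, 0.741 for Hamp, 0.177 for Myh6, 0.485 for Nppb, 0.017 for Pdk4, 0.435 for Reg3b and 0.495 for Timp1. It gave list medians of 0.362 for p53 targets, 0.218 for fatty acid oxidation, 0.225 for the citric acid cycle list and 0.24 for adipocyte markers. Median centring gave -0.041 for Adrb1 and 0.032 for Hamp, cyclic loess -0.103 for Adrb1, 0.048 for Nppb and -0.011 for Tnfrsf12a, and array weights 0.215 for Hamp and 0.175 for Nppb. The beta-actin covariate gave -0.09 for Adrb1, 0.559 for Reg3b and -1.227 for Tnfrsf12a, with list medians of -0.038 for matrix enzymes and 0.166 for adipocyte markers. The array median as a covariate gave -0.013 for Adrb1, -0.522 for Tnfrsf12a and -0.024 for Tubb6. Leaving out 1 array gave differences of -0.338 to 0.606 for Tnfrsf12a, -0.05 to 0.15 for Adrb1, -0.639 to 0.305 for Ccl2, -0.748 to 0.32 for Hamp, -0.232 to 0.21 for Nppb, -0.303 to 0.197 for Timp1, -0.927 to 0.101 for Reg3b and -0.089 to 0.003 for Myh6.

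Probe sets near the filter level, as on the vehicle arrays for Fosb, Il6 and Spp1, have folds compressed by the offset of 16. Which array property underlies the loss of calls under either covariate was not tested.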
